A study of Mus musculus with 2 samples.

Results

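The genes of the Rab GTPases were measured in the nucleoplasmic RNA of mouse macrophages given Lipid A. The members were the genes that GENCODE M21 types as protein coding and whose symbol is Rab followed by a number, with at most 1 further letter and 1 further digit. This rule uses no measured value, and it took 59 genes of the 22028 protein-coding genes and the 55536 genes of any type in the tables. The rule covers the genes known as Rab by symbol, and Rab-like genes were not taken.

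The macrophages had been grown from bone marrow of C57BL/6J mice, and the RNA was sequenced as total RNA after removal of ribosomal RNA. All the libraries formed 1 group, in which cells had received Lipid A at 100 ng/ml for 40 min, and the labels name no other strain, allele or agent. It held 2 libraries, labelled biological replicates 1 and 2, with fragments selected at a size of 250 to 400. Replicate 1 started from 1 µg of RNA and replicate 2 from 500 ng, so input and replicate cannot be told apart, and both carry the same donor identifier. Age and sex were not collected, per the labels. Cells without Lipid A were not analysed here, and no response can be read from these levels. The libraries held 19630046 expected counts in replicate 1 and 18434601 in replicate 2. All 10 macrophage markers listed were detected, and they summed to 8111 TPM in replicate 1 and 5032 TPM in replicate 2. All 6 listed genes of the Lipid A response were detected as well. Of 28 markers of 6 other cell types, 15 had 0 counts in both replicates by alignment. The 1 detected by alignment was Cd4, at 22.2 TPM in replicate 1 and 16.1 TPM in replicate 2. By the FASTQ-derived tables, described below, the T cell marker Cd3d had 2.38 TPM in replicate 1 and 4.28 TPM in replicate 2. The part of such markers in the Rab levels was not tested. In RNA pooled over many cells, fewer cells of a type and less RNA per cell cannot be told apart.

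Rab proteins are small GTPases that give vesicles and organelles their identity. An exchange factor loads a Rab with GTP on its target membrane, the active Rab recruits effectors such as tethers and motor adaptors, and a GTPase-activating protein switches it off. Prenyl groups on cysteines at the end of the protein hold it in the membrane, and a GDP dissociation inhibitor extracts the inactive form. In macrophages Rabs direct the uptake of microbes, the maturation of the phagosome, and the traffic of TLR4, the receptor for Lipid A, and of secreted cytokines.

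The part of the message that encodes this membrane anchor is shown for the 2 most abundant members by mean TPM, for the paralogue pairs with the largest gap in TPM and for Rab20. Each line gives the last 30 coding bases of the longest coding model with the stop codon, 5′ to 3′, from the GENCODE M21 transcripts, with the cysteine codons in capitals.
Rab7: aaggcctccgcagaaagcTGCagtTGTtga
Rab7b: ccaggccagccaaagagcagaTGCTGCtga
Rab14: caaccccagagagaaggcTGTggcTGCtag
Rab8b: accagtttcttccgcTGTtctctgctttga
Rab8a: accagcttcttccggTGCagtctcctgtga
Rab1a: gtcaagcagtcaggtggaggcTGCTGCtaa
Rab1b: gtgaagcctgctagcggtggcTGCTGCtag
Rab20: aaacagactagatccgggTGTTGTgcctaa
All 59 members had a complete coding sequence, of 194 to 973 codons with a median of 215, and all of them ended in 1 of 4 arrangements of cysteine codons. In 20 members, among them Rab7 and Rab14, a cysteine codon, 1 other codon and a last cysteine codon closed the sequence. In 15 members, such as Rab7b, Rab1a and Rab1b, the last 2 codons both encoded cysteine. In 15 others, such as Rab20, a pair of adjacent cysteine codons was followed by 1 to 3 codons. In the remaining 9, such as Rab8a and Rab8b, a cysteine codon stood as the 4th from the end. Rab7 and Rab7b thus differed in the arrangement, while Rab8a shared it with Rab8b, and Rab1a with Rab1b.

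Of the 59 members, 34 were detected, meaning a level of at least 1 TPM in both replicates. That is 57.6% of the members, against 40% of all protein-coding genes. A mean of at least 10 TPM was reached by 19 members, or 32.2%, against 16.8% of all protein-coding genes. Another 15 had a mean from 1 to under 10 TPM, 15 from 0.1 to under 1 TPM, and 10 were under 0.1 TPM. The median over all members was 2.83 ± 0.70 TPM, against 0.315 ± 0.092 TPM for all protein-coding genes (SD, n = 2). Among detected genes only, the median was 11.9 ± 2.72 TPM for members and 7.38 ± 1.78 TPM for all protein-coding genes. The members together took 0.254% of the expected counts of nuclear-encoded protein-coding genes in replicate 1 and 0.264% in replicate 2. The 3 highest members held 27.6% ± 0.43 of the summed TPM of the family and the 10 highest held 63.0% ± 0.096. No single member made up most of the family. With 1 group there is no contrast to test, so levels are given with their SD over both replicates and no p-value is given.

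**Figure D1:**
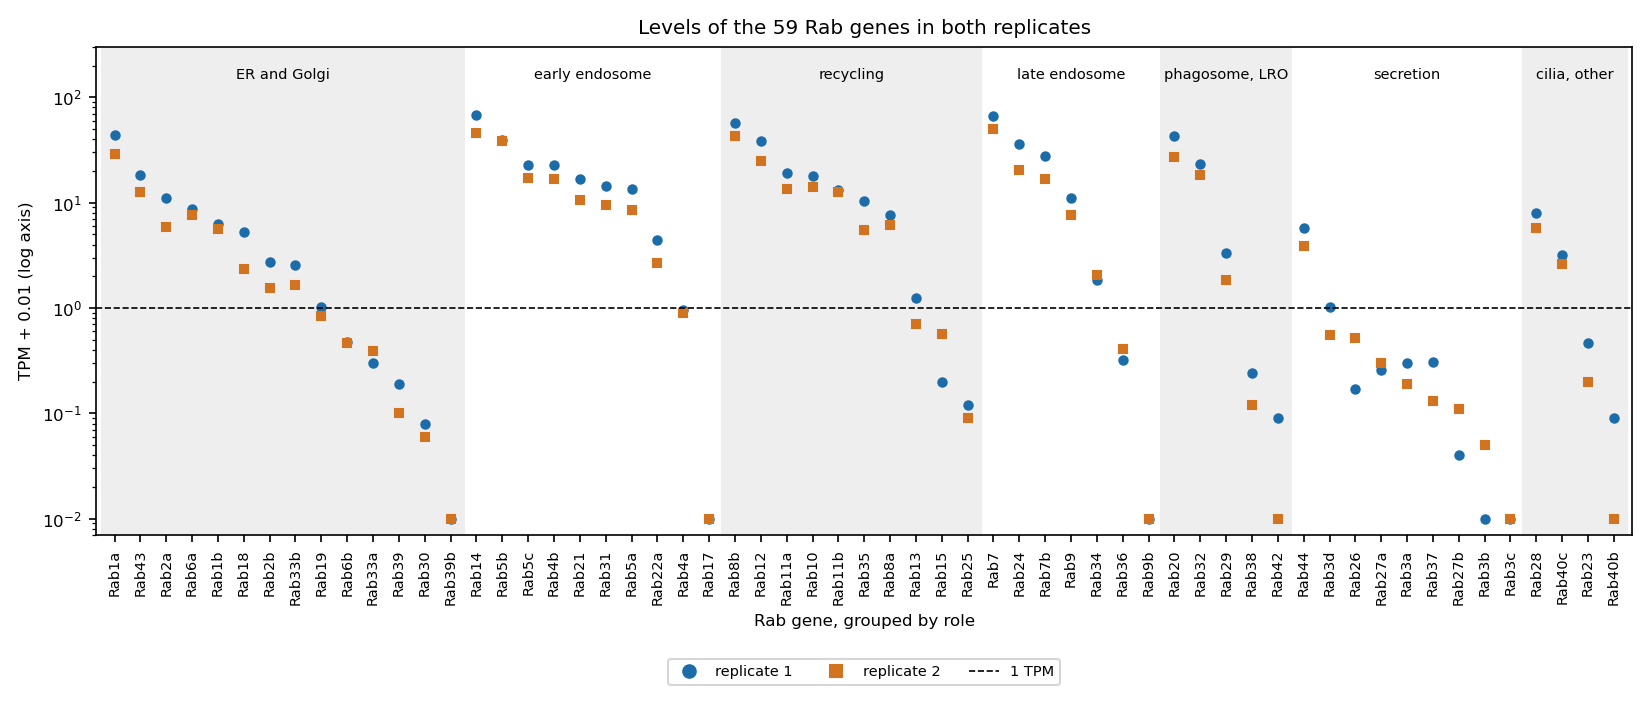
TPM plus 0.01 of the 59 Rab genes on a log axis, grouped by role, with circles for replicate 1 and squares for replicate 2; the dashed line marks 1 TPM. Rab7, Rab14 and Rab8b lie highest, only Rab44 of the regulated secretion group lies above the line in both replicates, and 4 genes lie at 0 TPM in both.

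The late endosome, lysosome and autophagy group held 7 members, of which 5 were detected, and took 20.4% of the family's summed TPM in replicate 1 and 19.5% in replicate 2. Rab7, which drives fusion of late endosomes and phagosomes with lysosomes, had the highest mean of all members. Rab7 (ENSMUSG00000079477.9, mm10 chromosome 6, 87999106 to 88045270, minus strand) had 66.8 TPM in replicate 1 and 49.8 TPM in replicate 2, a mean of 58.3 ± 12.1 TPM, and ranked 663 among protein-coding genes. Its deposited credibility interval, which covers counting and read assignment within a library, ran from 62.0 to 67.6 TPM in replicate 1 and from 46.9 to 51.2 TPM in replicate 2. Its TPM was lower in replicate 2, but its log2 ratio of TMM-scaled counts, replicate 2 over replicate 1, was 0.08, so the direction between replicates turned with the scale. Rab24, linked to autophagy, had 35.6 TPM in replicate 1 and 20.4 TPM in replicate 2, a mean of 28.0 ± 10.8 TPM. Rab7b, which returns cargo from late endosomes to the trans-Golgi network and has been reported to lower TLR4 in macrophages, had 27.5 TPM in replicate 1 and 16.7 TPM in replicate 2. Rab24 and Rab7b overlapped each other in these alignment-based ranges, but Rab24 was above Rab7b in each replicate. Both lay below Rab7 in each replicate. In the FASTQ-derived tables the pair stood apart in the other order, with Rab7b at 28.6 TPM in replicate 1 and 23.9 TPM in replicate 2 and Rab24 at 13.5 TPM in replicate 1 and 9.41 TPM in replicate 2. Rab9, which serves the same route from late endosomes to the trans-Golgi network, had 11.0 TPM in replicate 1 and 7.60 TPM in replicate 2. Rab34, known for positioning lysosomes and for cilia, had 1.84 TPM in replicate 1 and 2.06 TPM in replicate 2. The undetected members were Rab36 and Rab9b.

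Early endosome Rabs took 28.8% of the family's summed TPM in replicate 1 and 30.3% in replicate 2, and 8 of their 10 members were detected, 7 of them at a mean of at least 10 TPM. Rab14, which moves cargo between the Golgi and early endosomes and acts on phagosomes, led the group. Rab14 (ENSMUSG00000026878.17, mm10 chromosome 2, 35180205 to 35201120, minus strand) had 67.3 TPM in replicate 1 and 46.2 TPM in replicate 2, a mean of 56.8 ± 14.9 TPM. On this scale it was above Rab7 in replicate 1 and below it in replicate 2. By the FASTQ-derived tables it was below Rab7 in both, at 31.2 TPM in replicate 1 and 26.4 TPM in replicate 2, and on coding models alone it had 26.3 TPM in replicate 1 and 19.0 TPM in replicate 2. The Rab5 genes encode the GTPase that drives fusion of early endosomes. Rab5b had 39.1 TPM in replicate 1 and 38.4 TPM in replicate 2. Rab5c had 22.8 TPM in replicate 1 and 17.2 TPM in replicate 2. Rab5a had 13.4 TPM in replicate 1 and 8.54 TPM in replicate 2. The order Rab5b, Rab5c, Rab5a held in both replicates with no overlap between neighbours. Rab4b, of the fast recycling route, had 22.8 TPM in replicate 1 and 16.9 TPM in replicate 2. Rab21, which binds integrins and guides their uptake, had 16.9 TPM in replicate 1 and 10.5 TPM in replicate 2. Rab31, which carries cargo from the trans-Golgi network to endosomes, had 14.2 TPM in replicate 1 and 9.44 TPM in replicate 2. These last 2 genes overlapped in their alignment-based ranges with each other and with Rab5a, but the order Rab21, Rab31, Rab5a held in each replicate. Rab22a, also of early endosomes, had 4.39 TPM in replicate 1 and 2.64 TPM in replicate 2, and Rab4a and Rab17 were not detected.

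The recycling and polarised transport group took 23.6% of the family's summed TPM in replicate 1 and 24.2% in replicate 2, with 7 of 10 members detected. Rab8b, which brings vesicles from the Golgi to the cell surface, was its highest member in alignment-based TPM. Rab8b (ENSMUSG00000036943.9, mm10 chromosome 9, 66843664 to 66919687, minus strand) had 56.7 TPM in replicate 1 and 42.5 TPM in replicate 2, a mean of 49.6 ± 10.1 TPM. In expected counts, which are not scaled for length, it was the highest of all members, at 5524 in replicate 1 and 5478 in replicate 2. The TPM of Rab8b lay above its deposited credibility interval in both replicates. The interval ran from 52.4 to 55.2 TPM in replicate 1 and from 40.0 to 42.1 TPM in replicate 2. Rab12, which sends the transferrin receptor from recycling endosomes to lysosomes, had 38.4 TPM in replicate 1 and 24.6 TPM in replicate 2. By the FASTQ-derived tables Rab12 was above Rab8b, at 29.6 TPM in replicate 1 and 23.4 TPM in replicate 2 against 26.1 TPM and 21.2 TPM. Rab11a and Rab11b mark the slow recycling endosome. Rab11a had 19.3 TPM in replicate 1 and 13.4 TPM in replicate 2. Rab11b had 13.3 TPM in replicate 1 and 12.6 TPM in replicate 2. The lower Rab11a value lay next to the higher Rab11b value on this scale, while the FASTQ-derived means were 20.4 ± 0.66 TPM for Rab11a and 8.15 ± 0.19 TPM for Rab11b (SD, n = 2). Rab10, reported to carry TLR4 to the surface of macrophages, had 17.7 TPM in replicate 1 and 14.0 TPM in replicate 2. By alignment it was below Rab11a in replicate 1 and above it in replicate 2. By the FASTQ-derived tables Rab10 lay below Rab11a in both, at 8.42 TPM in replicate 1 and 7.35 TPM in replicate 2. Rab35, of fast recycling, had 10.4 TPM in replicate 1 and 5.48 TPM in replicate 2. Rab8a had 7.59 TPM in replicate 1 and 6.06 TPM in replicate 2. Rab13, Rab15 and the epithelial Rab25 were not detected, with Rab13 at 1.22 TPM in replicate 1 and 0.70 TPM in replicate 2.

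Among the 5 members of lysosome-related organelles and phagosomes, 3 were detected, and the group took 9.997% of the family's summed TPM in replicate 1 and 9.481% in replicate 2. Rab20 acts in phagosome maturation. Rab20 (ENSMUSG00000031504.6, mm10 chromosome 8, 11453518 to 11478710, minus strand) had 42.9 TPM in replicate 1 and 26.9 TPM in replicate 2, a mean of 34.9 ± 11.3 TPM. Rab32, which serves melanosomes and other lysosome-related organelles and acts against bacteria in macrophages, had 23.5 TPM in replicate 1 and 18.2 TPM in replicate 2, below Rab20 in each. Rab29, known as a partner of the kinase LRRK2, had 3.32 TPM in replicate 1 and 1.85 TPM in replicate 2. Rab38, the close relative of Rab32 in melanosome biogenesis, had 0.23 TPM in replicate 1 and 0.11 TPM in replicate 2, and Rab42 was also not detected.

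The ER and Golgi group was the most numerous, with 14 members and 8 detected, but only Rab1a and Rab43 reached a mean of 10 TPM, and the group took 14.4% of the family's summed TPM in replicate 1 and 13.7% in replicate 2. Rab1a, required for transport from the ER to the Golgi, had 43.6 TPM in replicate 1 and 28.8 TPM in replicate 2. Rab43, a Golgi Rab, had 18.4 TPM in replicate 1 and 12.7 TPM in replicate 2. Rab1a was above Rab43 in each replicate with no overlap. Rab2a, also of the route between ER and Golgi, had 11.1 TPM in replicate 1 and 5.83 TPM in replicate 2. Rab6a, of retrograde transport at the Golgi, had 8.78 TPM in replicate 1 and 7.59 TPM in replicate 2. Rab33b, which binds the autophagy protein ATG16L1, had 2.55 TPM in replicate 1 and 1.66 TPM in replicate 2. Rab1b, the relative of Rab1a with the same route, had 6.21 TPM in replicate 1 and 5.61 TPM in replicate 2. The other detected members were Rab18, a Rab of the ER and lipid droplets, and Rab2b, which lay between 1.55 and 5.26 TPM in single replicates. Rab19, Rab30, Rab33a, Rab39, Rab39b and Rab6b were not detected, with Rab39 at 0.18 TPM in replicate 1 and 0.09 TPM in replicate 2.

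Of the 9 regulated secretion members 1 was detected in the alignment-based tables, and the group took 1.12% of the family's summed TPM in replicate 1 and 1.13% in replicate 2. The Rab3 genes and Rab27a and Rab27b, which dock secretory granules and synaptic vesicles, were all below 1 TPM in at least 1 replicate. Rab3d had 1.02 TPM in replicate 1 and 0.54 TPM in replicate 2. Rab27a had 0.25 TPM in replicate 1 and 0.29 TPM in replicate 2. None of Rab3a, Rab3b, Rab3c, Rab26, Rab27b and Rab37 was above 0.51 TPM in a replicate. The detected member was Rab44, an unusually long Rab with EF-hand domains that acts in granule secretion by mast cells, at 5.77 TPM in replicate 1 and 3.83 TPM in replicate 2. The group of cilia and other roles held Rab28 and Rab40c as detected members. Rab28 had 8.03 TPM in replicate 1 and 5.73 TPM in replicate 2. Rab40c, a Rab with a SOCS box that binds ubiquitin ligase subunits, had 3.16 TPM in replicate 1 and 2.59 TPM in replicate 2, and Rab23 and Rab40b were not detected.

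In both replicates 4 members had 0 expected counts, namely Rab17, Rab3c, Rab39b and Rab9b. A count of 0 allows up to 3 counts per library, which for Rab17 is 0.153 TPM in replicate 1 and 0.118 TPM in replicate 2, and for Rab39b 0.0437 TPM in replicate 1 and 0.0330 TPM in replicate 2. These limits hold for counting error alone, because the reads carry no molecular identifiers and may repeat a molecule. The deposited credibility intervals of Rab17 reached higher, to 0.664 TPM in replicate 1 and 0.535 TPM in replicate 2. Those of Rab39b reached 0.0498 TPM in replicate 1 and 0.0320 TPM in replicate 2. Rab17 and Rab39b were at 0 in the FASTQ-derived tables too, while Rab3c and Rab9b were not.

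Members that share a number were grouped as families of paralogues, and levels in TPM can be set side by side within them. Roles can differ within such a family, as for Rab7 and Rab7b. Relatives with other numbers, such as Rab32 and Rab38, were not grouped. There were 14 such families with 31 members, 12 of them pairs. In 11 of the families the leading member was detected, and in 8 of these it held at least 75% of the family's TPM in both replicates. The leading member of a pair holds the larger part by definition. Paralogue families of other genes were not counted, so this is not shown to be particular to Rab genes. Rab8b held 88.2% in replicate 1 and 87.5% in replicate 2, with Rab8a as the minor member. Rab1a held 87.5% in replicate 1 and 83.7% in replicate 2, with Rab1b as the minor member. Rab4b, Rab6a, Rab9 and Rab40c each held from 94.3% to 100% in single replicates, and Rab2a and Rab33b from 79.0% to 89.8%. The other 3 families were shared more evenly. Rab7 held 70.9% in replicate 1 and 74.8% in replicate 2, and Rab5b 51.9% in replicate 1 and 59.9% in replicate 2. Rab11a held 59.2% in replicate 1 and 51.5% in replicate 2, but in expected counts Rab11b led in both, and over coding models alone Rab11b led in replicate 2. By the FASTQ-derived tables Rab11a held 71.6% in replicate 1 and 71.3% in replicate 2. The leading member of the Rab11 pair therefore depended on the measure. Of the 3 families without a detected member, Rab3, Rab27 and Rab39, no member reached 1 TPM in both replicates by alignment. By the FASTQ-derived tables Rab3b and Rab3c did, and Rab3c and Rab27b led their families in both replicates.

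**Figure D2:**
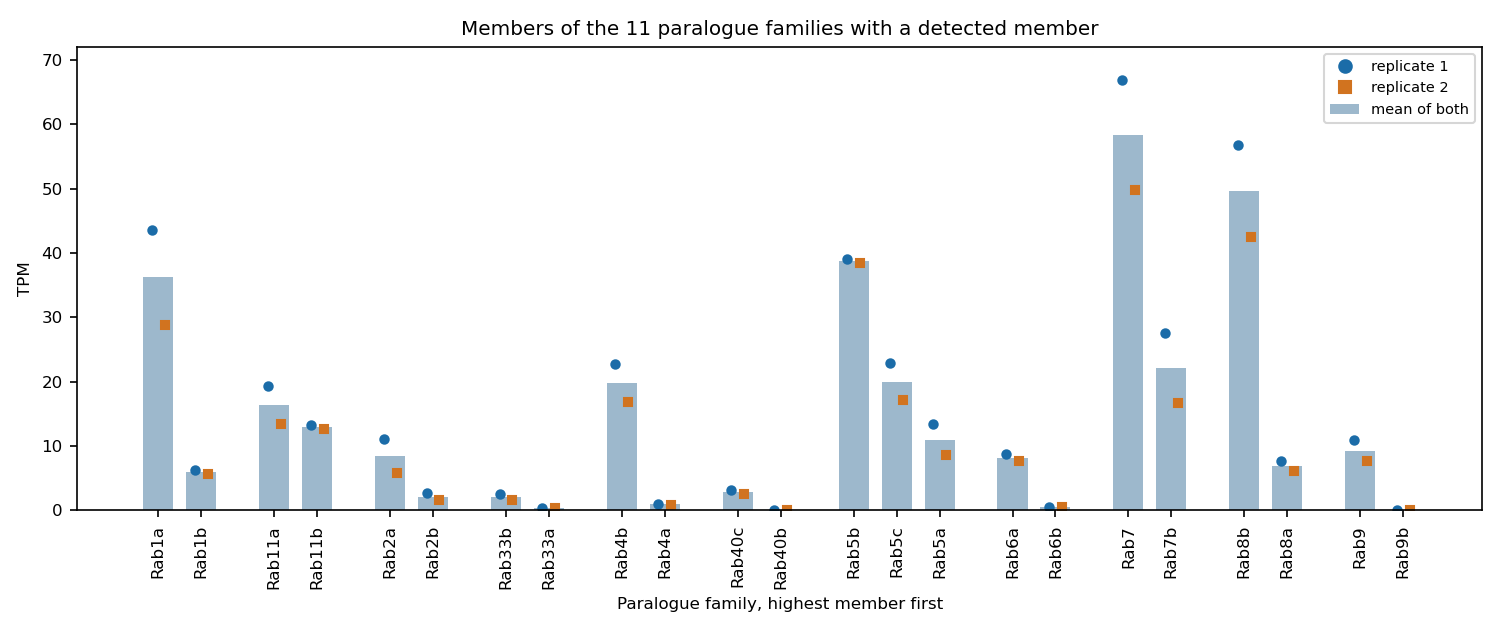
TPM on a linear axis of the members of the 11 paralogue families whose leading member was detected; bars are means of both replicates, circles replicate 1 and squares replicate 2. Rab8b and Rab1a stand well above Rab8a and Rab1b, while Rab11a and Rab11b lie close together.

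Reads are split between paralogues by their sequence, so the coding sequences of the 3 pairs with the largest gap in TPM were aligned. The stretch printed spans the switch II region, where Rabs contact GTP and their effectors, and is shown to give how much sequence tells each pair apart. The lines give 60 coding bases, 5′ to 3′, from the GENCODE M21 transcripts, with the bases that differ between the pair in capitals.
Rab8b: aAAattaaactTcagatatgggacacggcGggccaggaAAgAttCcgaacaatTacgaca
Rab8a: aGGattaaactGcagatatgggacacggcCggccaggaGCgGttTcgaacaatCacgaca
Rab7: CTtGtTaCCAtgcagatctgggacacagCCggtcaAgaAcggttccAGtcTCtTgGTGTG
Rab7b: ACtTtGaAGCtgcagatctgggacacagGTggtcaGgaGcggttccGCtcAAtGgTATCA
Rab1a: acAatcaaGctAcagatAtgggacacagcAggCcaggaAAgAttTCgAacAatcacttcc
Rab1b: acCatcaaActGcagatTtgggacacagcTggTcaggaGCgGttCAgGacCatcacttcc
The stretch differed at 9 of 60 bases between Rab8b and Rab8a, at 21 between Rab7 and Rab7b and at 13 between Rab1a and Rab1b. Over the whole coding sequence the identity was 77.5% for the Rab8 pair, 62.5% for the Rab7 pair and 77.6% for the Rab1 pair. The longest identical run was 17 bases for Rab8b and Rab8a, 18 for Rab7 and Rab7b and 38 for Rab1a and Rab1b. How well single reads of each pair were told apart was not tested. No members that share a number lay side by side in the genome, and the members closest to each other were Rab7b and Rab29 on chromosome 1, at 151785 bases, and Rab43 and Rab7 on chromosome 6, at 186942 bases. Of the 4 annotated pseudogenes named after members, none held more than 5.08 expected counts in a replicate.

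Nuclear RNA can hold transcripts whose introns have not all been removed, and the annotation carries such transcripts as retained-intron models. The members had 256 models in the tables, of which 155 were typed as protein coding, 53 as retained intron, 35 as processed transcript and 13 as targets of nonsense-mediated decay. Coding models took 79.6% ± 0.16 of the members' summed TPM, against 65.5% ± 0.064 for all nuclear-encoded protein-coding genes. Retained-intron models took 15.8% ± 0.74 for members and 24.7% ± 0.32 for all nuclear-encoded protein-coding genes (SD, n = 2). In expected counts the retained-intron share was 13.1% ± 0.32 for members and 16.9% ± 0.32 for those genes. The members thus had the lower share on both scales, a description across genes with no test. A gene without an annotated retained-intron model can hold no such share, and 26 of the 59 members had one. Among detected genes, such a model was annotated for 14 of 34 members and for 5736 of 8810 protein-coding genes. The part of annotation in the lower share was not tested. Rab14 alone moved the members' share, which was 11.4% ± 0.91 without it, an alternative chosen after seeing the data.

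Retained-intron models were annotated for 26 members, 14 of them detected. Over 50% of TPM stood in such models in both replicates for 2 of these 14 members, Rab14 and Rab8a, against 12.6% of detected protein-coding genes with such a model. Rab14 had 7 retained-intron models, which took 58.1% of its TPM in replicate 1 and 58.2% in replicate 2. The largest of them, Rab14-210, had 13.0 TPM in replicate 1 and 10.7 TPM in replicate 2, while the coding model Rab14-201 had 19.8 TPM in replicate 1 and 16.0 TPM in replicate 2. For Rab8a the single retained-intron model took 68.1% of TPM in replicate 1 and 70.3% in replicate 2. In expected counts the same model held 14.2% of Rab8a in replicate 1 and 14.6% in replicate 2. TPM is scaled by the effective length of each model and counts are not. On its coding model alone Rab8a had 2.42 TPM in replicate 1 and 1.80 TPM in replicate 2. The share for Rab5b was 37.7% in replicate 1 and 40.2% in replicate 2, and for Rab12 it was 35.1% in replicate 1 and 43.0% in replicate 2. Rab4b was above 50% in replicate 1, at 57.9%, and below it in replicate 2, at 38.6%. Rab5a crossed the other way, at 40.6% in replicate 1 and 51.6% in replicate 2. At the other end, Rab11a had 5.19% in replicate 1 and 4.19% in replicate 2, and Rab29 had 0% in both. Processed transcripts, which carry no annotated reading frame, stood out in Rab1a and Rab44, which were picked after their values were seen. In Rab1a the models Rab1a-204 and Rab1a-205 left 27.7 TPM in replicate 1 and 22.3 TPM in replicate 2 to coding models. In Rab44 non-coding models of all types took 80.2% of TPM in replicate 1 and 63.1% in replicate 2. Coding models had 1.14 TPM in replicate 1 and 1.41 TPM in replicate 2. The largest non-coding model, Rab44-202, had 2.82 TPM in replicate 1 and 1.71 TPM in replicate 2, from 8.75 and 5.95 expected counts. The coding model Rab44-201 and the retained-intron model Rab44-207 had equal values throughout, so the split between them was not resolved. The coding level of Rab44 in TPM was thus near the detection limit, and it rests in part on that unresolved split.

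**Figure D3:**
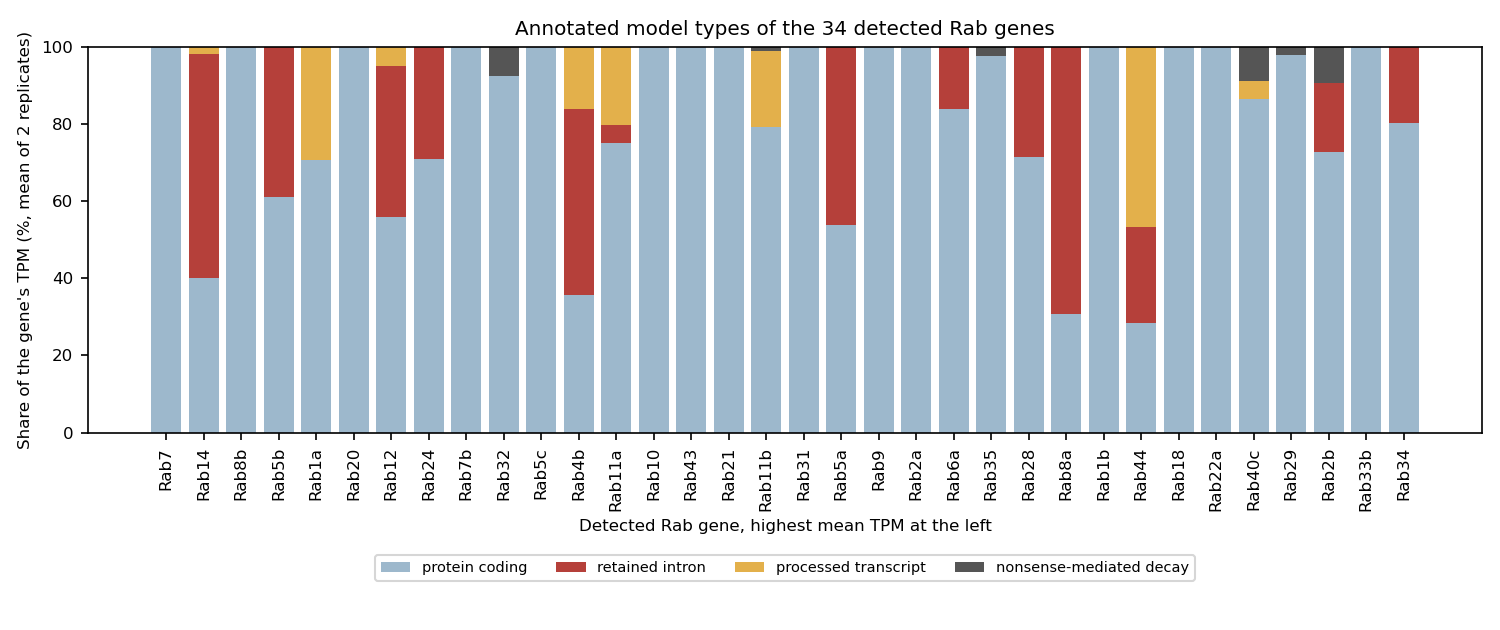
Share of each gene's TPM (percent, mean of both replicates) in models typed as protein coding, retained intron, processed transcript and nonsense-mediated decay, for the 34 detected Rab genes with the highest mean TPM at the left. Retained-intron models fill the largest part of Rab14, Rab8a and Rab4b. Only coding models are annotated for Rab7, Rab8b and Rab20, so their bars could hold no other type.

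Genes that overlap members matter because the strand setting of the counting is not given in the sources used here. The exons of 7 detected members overlapped exons of a detected gene on the other strand, and reads of the 2 genes may not be told apart there. Rab20 shared 356 exon bases with the lncRNA E230013L22Rik, which starts 781 bases from the start of Rab20 (chromosome 8, 11477929 to 11480241, plus strand). E230013L22Rik had 49.1 TPM in replicate 1 and 22.0 TPM in replicate 2, close to the level of Rab20 itself. Rab24 shared 1258 exon bases with Prelid1, which had 11.6 TPM in replicate 1 and 10.7 TPM in replicate 2. Rab10 shared 143 with its antisense gene Rab10os, which had 17.5 TPM in replicate 1 and 12.3 TPM in replicate 2. The others were Rab11b, Rab2b, Rab6a and Rab7. On the same strand, 3 detected members held in an intron a detected gene of the annotation type TEC, a model not yet tested by experiment. Gm44187, in an intron of Rab7 (chromosome 6, 88040539 to 88042467), had 51.8 TPM in replicate 1 and 24.5 TPM in replicate 2. Gm20100, in an intron of Rab20 (chromosome 8, 11457471 to 11459742), had 40.8 TPM in replicate 1 and 20.8 TPM in replicate 2. These levels were of the order of their host genes in TPM. The remaining host was Rab43. Rab43 also shared 4164 exon bases on the same strand with Gm45140, which had 1.94 TPM in replicate 1 and 0.38 TPM in replicate 2. Rab4b shared 1280 in this way with Gm21983, which had 0 TPM in replicate 1 and 0.22 TPM in replicate 2. How reads were split within these pairs was not tested. The myeloid receptor gene Cd300lf lies within Rab37, which was not detected, on the other strand, and had 61.5 TPM in replicate 1 and 46.5 TPM in replicate 2, with no overlap of exons.

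The regulators and partners of Rabs were taken from 4 lists chosen by role. Of all protein-coding genes 40% were detected, with a median over all of them of 0.315 ± 0.092 TPM. Prenylation, escort and recycling factors were detected in 7 of 8 cases, with a median of 7.12 ± 1.26 TPM. Gdi2, which extracts inactive Rabs from membranes, had 34.9 TPM in replicate 1 and 27.9 TPM in replicate 2. The escort protein gene Chm had 9.32 TPM in replicate 1 and 6.75 TPM in replicate 2, below Gdi2 in each. Exchange factors were detected in 30 of 36 cases, with a median of 8.66 ± 2.53 TPM. They were led by Dennd1a, which activates Rab35, at 107.4 TPM in replicate 1 and 82.7 TPM in replicate 2. Rabgef1, which activates Rab5, had 78.7 TPM in replicate 1 and 49.5 TPM in replicate 2, and Rab3gap2, part of an exchange factor for Rab18, 66.0 TPM in replicate 1 and 48.7 TPM in replicate 2. GTPase-activating proteins were detected in 33 of 39 cases, with a median of 8.94 ± 1.65 TPM. Tbc1d4, which acts on Rab10, had 55.9 TPM in replicate 1 and 43.7 TPM in replicate 2. Tbc1d2b had 53.1 TPM in replicate 1 and 38.5 TPM in replicate 2, and Tbc1d23, an adaptor of the trans-Golgi network, 50.3 TPM in replicate 1 and 30.4 TPM in replicate 2. The ranges of these 3 overlapped across replicates, but their order was the same in each replicate. By the FASTQ-derived tables Tbc1d2b was above Tbc1d4, at 43.0 TPM in replicate 1 and 43.1 TPM in replicate 2 against 27.9 TPM and 25.6 TPM. Effectors were detected in 31 of 47 cases, with a median of 5.04 ± 1.52 TPM. Appl2, a Rab5 effector, had 192.4 TPM in replicate 1 and 125.9 TPM in replicate 2. Eea1, which tethers early endosomes for Rab5, had 82.0 TPM in replicate 1 and 54.8 TPM in replicate 2, and Rilpl2, which binds phosphorylated Rabs, 41.9 TPM in replicate 1 and 18.7 TPM in replicate 2. The 16 effectors not detected included Sytl1, Sytl2, Sytl4, Sytl5, Rims1, Rims2, Rph3a and Myrip, which bind Rab3 or Rab27 and were named after their values were seen. Unc13d, which also binds Rab27, was detected.

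Between the replicates, expected counts of the members differed little once libraries were scaled by TMM. Of the 45 members with a mean of at least 10 expected counts, 19 were lower in replicate 2, or 42.2%, against 47.8% of protein-coding genes at the same minimum. The median log2 ratio of replicate 2 over replicate 1 was 0.04 for members and 0.02 for protein-coding genes. None of the 32 members with a mean of at least 100 expected counts had a log2 ratio beyond 0.5 in size, against 7.79% of protein-coding genes. The ends of their range were Rab2a at a log2 ratio of -0.43, with 318 counts in replicate 2 and 460.0 in replicate 1, and Rab5b at 0.45, with 2557 counts in replicate 2 and 2008 in replicate 1. The TPM values did not follow the counts. TPM was lower in replicate 2 for 33 of the 34 detected members, against 91.8% of detected protein-coding genes, and the median log2 ratio of TPM was -0.54 for members and -0.49 for protein-coding genes. The median SD between replicates was 26.3% of the mean TPM over detected members. It was 7.91% after TPM was rescaled to a fixed total over nuclear-encoded protein-coding genes.

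**Figure D4:**
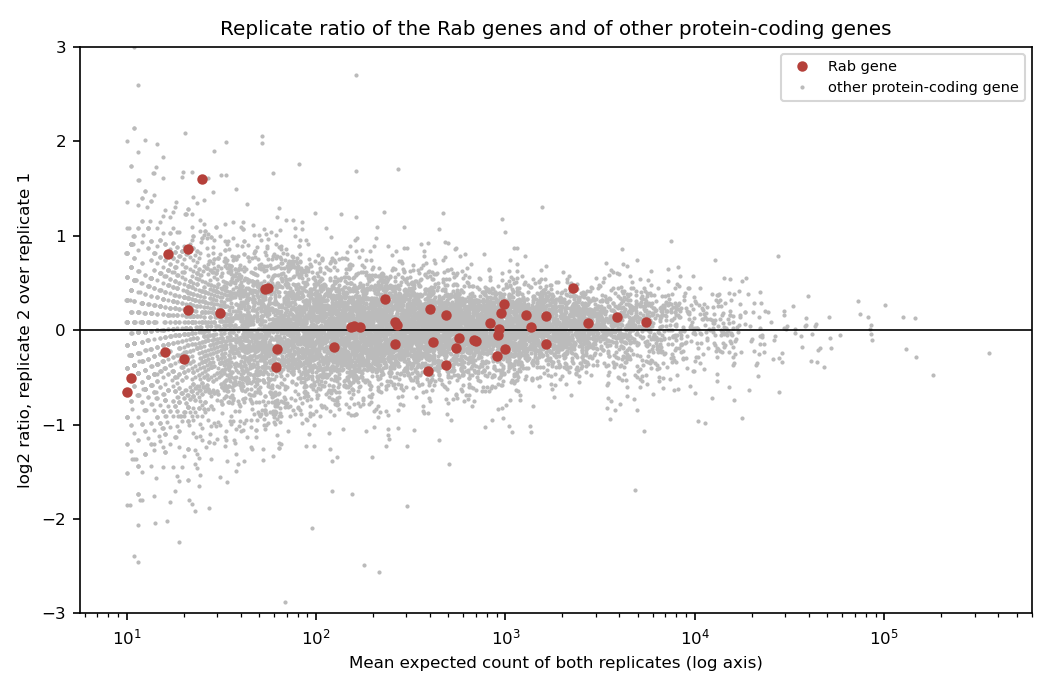
Log2 ratio of TMM-scaled counts, replicate 2 over replicate 1, against the mean expected count on a log axis, with Rab genes in large points and other protein-coding genes in small ones; 15 genes lie outside the axis, which ends at a size of 3. Rab genes with at least 100 counts lie between -0.43 and 0.45.

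The FASTQ-derived transcript tables gave each member a further level, summed here per gene. Of the 34 members with a mean of at least 1 TPM by both kinds of table, 7 differed by over 2-fold, or 20.6%, against 19.1% of protein-coding genes. The alignment-based mean was the higher in 6 of them, at 2.44 times the FASTQ-derived one for Rab24, 2.22 for Rab29, 2.10 for Rab8b, 2.05 for Rab5a, 2.04 for Rab1b and 2.01 for Rab10. The median of alignment-based over FASTQ-derived TPM was 1.67 for these members and 1.57 for protein-coding genes, so a shift the same way ran through the tables. Rab34 went the other way. It had 7.93 TPM in replicate 1 and 9.18 TPM in replicate 2 by the FASTQ-derived tables, against 1.84 and 2.06 TPM by the alignment-based ones. Its retained-intron model Rab34-207 held 6.10 TPM in replicate 1 and 7.84 TPM in replicate 2 by the FASTQ-derived tables and was at 0 in the alignment-based ones. Rab7 stayed the highest member, at 48.1 TPM in replicate 1 and 46.3 TPM in replicate 2 by the FASTQ-derived tables. The FASTQ-derived tables detected 36 members, of which 32 were among the 34 detected by alignment. Rab23, Rab3b, Rab3c and Rab9b were added, and Rab29 and Rab2b dropped out. Of the 10 members under 0.1 TPM by alignment, 3 had at least 1 TPM in both replicates by the FASTQ-derived tables, against 4.86% of protein-coding genes under the same limit.

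**Figure D5:**
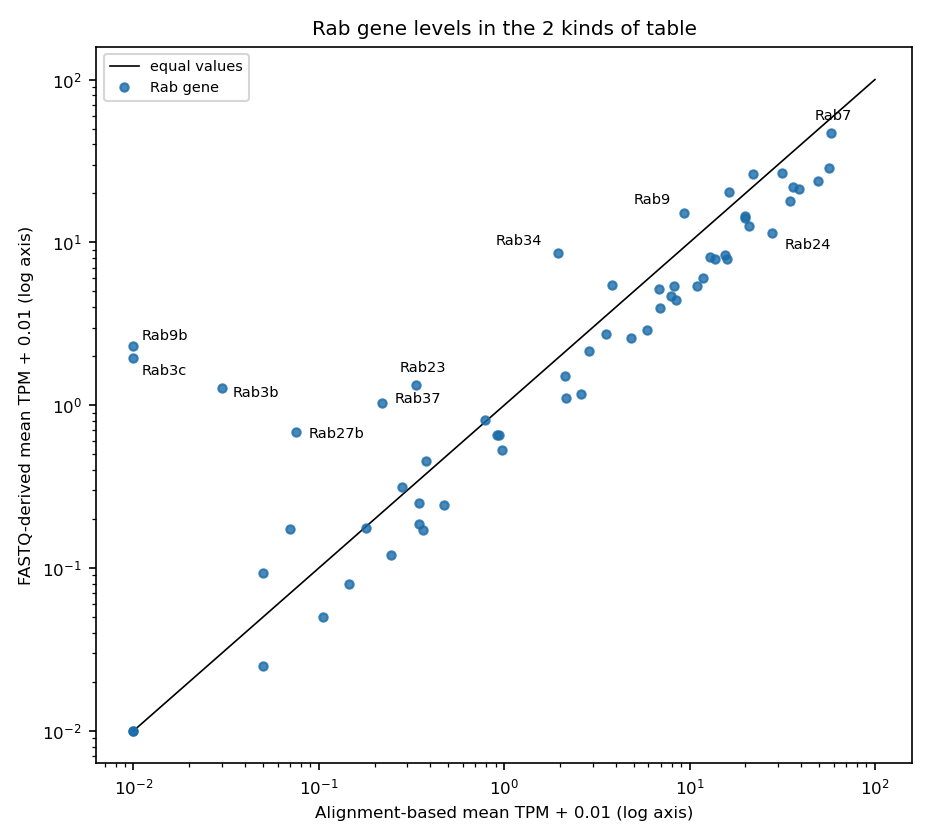
Mean TPM plus 0.01 of each Rab gene by the FASTQ-derived tables (vertical) against the alignment-based tables (horizontal), both on log axes, with the line of equal values. Most abundant Rab genes lie below the line, Rab34 lies above it, and Rab9b and Rab3c have over 1 TPM on the vertical axis at 0 on the horizontal one.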

How the data were processed

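The deposited alignment-based gene and transcript tables give expected counts and TPM, with posterior means and credibility intervals, per the file headers. The FASTQ-derived transcript tables deposited by the authors give estimated counts and TPM, summed here per gene. The build was mm10, per the labels, and all 55536 gene rows matched GENCODE M21. For the aligner, quantifiers, versions and strand setting: not given in the sources used here.

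Members were found by gene type and symbol. The members, gene lists and roles were chosen with earlier results of these data known. Members named with values had a mean of at least 10 TPM, led a paralogue family, had over 50% of TPM in retained-intron models, or differed over 2-fold between tables. Further members are named to complete their group. In each list of Rab partners, the 3 highest were named, except 1 gene that is not reported here.

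Levels were compared as TPM. The replicate ratio used expected counts in edgeR 4.0.16 (R 4.3.3), with TMM scaling and a prior count of 2, for genes with a mean of at least 10 counts. DESeq2 1.42.0 size factors were an alternative. No test was possible with 1 group. Library totals were 19630046 and 18434601 expected counts, and 26929533 and 33536257 estimated counts, in replicates 1 and 2.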

Additional observations from a re-analysis of the deposited data

Results flagged for a closer look

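Of 10 members with a mean under 0.1 TPM in the alignment-based tables, 3 had at least 1 TPM in both replicates in the FASTQ-derived tables, which no main level used. Among protein-coding genes under 0.1 TPM, 4.86% did. Rab9b had 2.60 TPM in replicate 1 and 2.00 TPM in replicate 2 by the FASTQ-derived tables, from 555 and 644 estimated counts, all on the coding model Rab9b-201. By alignment it had 0 counts, which allows up to 0.0370 TPM in replicate 1 and 0.0279 TPM in replicate 2. Rab3c had 1.78 TPM in replicate 1 and 2.09 TPM in replicate 2, from 467 and 854 estimated counts on its coding models. By alignment it too had 0 counts, which by counting error alone allows up to 0.0479 TPM in replicate 1 and 0.0363 TPM in replicate 2. Its deposited credibility interval reached higher, to 0.337 TPM in replicate 1 and 0.265 TPM in replicate 2. Rab3b had 1.34 TPM in replicate 1 and 1.18 TPM in replicate 2, from 22 and 21 estimated counts, nearly all on the processed transcript Rab3b-204. Its alignment-based level was 0 TPM in replicate 1 and 0.04 TPM in replicate 2. Which kind of table is nearer to the RNA present was not tested.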

How the results depend on the processing

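The count of detected members was 34, and 26 to 48 under the alternatives: 36 with FASTQ-derived TPM or the posterior mean, 43 with rescaled TPM or at least 10 counts, 48 at 0.1 TPM and 26 at 5 TPM. The median of 2.83 TPM over all members became 3.66 with the posterior mean, 13.1 with TPM rescaled over nuclear-encoded protein-coding genes and 11.9 over detected members. The median replicate log2 ratio of 0.04 became -0.41 on log2(TPM + 1) and -0.050 with FASTQ-derived counts. The retained-intron share of 15.8% became 13.1% in counts, 39.5% over members with such a model and 11.4% without Rab14. The share outside coding models, 20.4%, became 15.1% in counts, 29.3% with FASTQ-derived TPM, 33.2% over members with such models and 16.3% without Rab14. The cause was not tested for these. Paralogue families with a leading member at 75% or more numbered 8, and 7 in counts. Leaving out either replicate gave 34 to 37 detected members, a median of 2.33 to 3.32 TPM, 0.254% to 0.264% of counts, a retained-intron share of 15.3% to 16.4%, a non-coding share of 20.3% to 20.5% and 8 families. Of the 19 members at 10 TPM or more, the FASTQ-derived mean was within 1 SD for 4 and lower for 17.

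No paired analysis was possible because there was 1 group. Members with few counts, such as Rab25 with 2 in each replicate, have credibility intervals wider than their levels, and such members were not shown to be absent.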
